A study of Mus musculus with 5 samples.

Results

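The 10 genes described here are immediate early genes: *Fos*, *Fosb*, *Jun*, *Junb*, *Jund*, *Egr1*, *Atf3*, *Ier2*, *Ier3* and *Dusp1*. They were chosen by gene symbol, and each symbol matched exactly 1 of the 27998 genes annotated in the deposited count matrices. The study isolated cells from the mammary glands of ovariectomized mice and sequenced them by droplet-based 3′ single-cell RNA-seq, asking how hormones and flame retardants act on each cell type. Every mouse group, controls included, had been ovariectomized 20 weeks before a treatment of 1 week and was 30 weeks old when tissue was taken. There were 5 libraries, 1 for each group. OVX received vehicle only. OVX_E2 received 17β-estradiol (E2) at 1 µg per animal, and OVX_E2_P4 received the same E2 with progesterone (P4) at 0.1 mg per animal, by daily injection. OVX_E2_PBDE and OVX_E2_P4_PBDE received these hormones and food holding 3 polybrominated diphenyl ethers (PBDEs): BDE-47 at 7.1, BDE-100 at 0.4 and BDE-153 at 0.9 mg per kg of food. The other 3 groups ate matched food with the solvent alone. Ovariectomized mice lack cycling ovarian hormones, so the hormone groups model replacement at a fixed dose. How many mice entered each library is not given in the sources used here. With 1 library per group no test between groups was possible, and every interval below, given in parentheses after its value, is an exact 95% interval that covers counting error only, not the variation between mice or preparations. Intervals of levels and ratios also leave out variation between barcodes beyond counting error.

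Immediate early genes are transcribed within minutes of a stimulus, without new protein synthesis, when kinases activate transcription factors that already sit in the cell. FOS-family proteins pair with JUN-family proteins to form the AP-1 transcription factor; EGR1 is a zinc-finger factor, ATF3 a stress-induced factor, IER2 and IER3 are products of other early response genes, and DUSP1 is a phosphatase that switches MAP kinases off again. In mammary epithelium these genes answer growth factors and hormones, and they are also widely known to be induced in many tissues while cells are being separated with enzymes. The tissue here had been digested with collagenase and DNase at body temperature before capture, and the study itself used *Fosb* as a marker of stressed cells when it annotated its clusters.

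In the mm10 assembly (GRCm38), *Fos* lies on chromosome 12 from 85473890 to 85477273 (plus strand, 4 exons). *Jun* lies on chromosome 4 from 95049034 to 95052222 (minus strand, 1 exon), and *Dusp1* on chromosome 17 from 26505590 to 26562128 (minus strand, 4 exons). *Fosb* lies on chromosome 7 from 19302696 to 19310051 (minus strand, 4 exons), *Atf3* on chromosome 1 from 191170296 to 191218039 (minus strand, 4 exons) and *Ier3* on chromosome 17 from 35821684 to 35822923 (plus strand, 2 exons). *Junb*, on chromosome 8 from 84974484 to 84978718 (minus strand, 1 exon), shares its chromosome with *Jund*, from 70698949 to 70700616 (plus strand, 1 exon), and with *Ier2*, from 84661331 to 84662852 (minus strand, 1 exon). The 250 bases before the RefSeq start of these 3 genes are printed because these genes differed in where they were expressed and also in the motifs found there: a TATA box with a GC box in *Fos*, a single GC box in *Jun* and a cAMP response element between GC boxes in *Dusp1*. The stretches, 5′ to 3′ on the gene's strand, are chr12:85473640-85473889 (plus strand), chr4:95052223-95052472 (minus strand) and chr17:26508473-26508722 (minus strand) in GRCm38.p6. Capitals mark the letters of a searched motif on either strand.
Fos: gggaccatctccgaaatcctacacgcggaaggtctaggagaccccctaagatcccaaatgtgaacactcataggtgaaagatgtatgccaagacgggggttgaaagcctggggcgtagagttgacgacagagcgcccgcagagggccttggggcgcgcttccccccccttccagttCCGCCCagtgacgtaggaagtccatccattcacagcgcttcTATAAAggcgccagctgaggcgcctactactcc
Jun: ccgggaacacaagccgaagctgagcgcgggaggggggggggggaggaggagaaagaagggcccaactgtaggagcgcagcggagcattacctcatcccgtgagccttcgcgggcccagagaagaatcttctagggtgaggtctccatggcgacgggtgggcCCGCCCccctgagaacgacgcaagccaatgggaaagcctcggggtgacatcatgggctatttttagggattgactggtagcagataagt
Dusp1: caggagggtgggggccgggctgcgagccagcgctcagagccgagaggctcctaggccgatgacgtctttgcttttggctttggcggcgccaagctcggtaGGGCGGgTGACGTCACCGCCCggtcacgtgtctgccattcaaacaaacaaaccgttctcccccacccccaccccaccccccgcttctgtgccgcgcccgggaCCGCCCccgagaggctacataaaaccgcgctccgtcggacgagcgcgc

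RefSeq sequence was at hand for 8 of the 10 members, without *Egr1* and *Ier2*. The RefSeq starts need not match the gene ends given above. The stretches of *Dusp1* and *Atf3* lie wholly inside those spans. That of *Jund* ends at 70697738, ahead of its span. The GC box GGGCGG stood in 6 of the 8 stretches, *Fos*, *Fosb*, *Jun*, *Atf3*, *Ier3* and *Dusp1*, against 32.7% of 32851 promoters of the same length. TATAAA was present in *Fos* only (12.4% of all promoters), 33 to 28 bases before the start. The cAMP response element TGACGTCA was present in *Dusp1* only (1.55% of all promoters), 143 to 136 bases before the start. It overlapped no other motif but lay between GC boxes at 150 to 145 and at 135 to 130 bases. The AP-1 site TGANTCA (6.75% of all promoters) and the CArG box of serum response factor (1.47%) had 0 of 8 matches, which says only that these letters are not in this window. These matches describe sequence and were not tied to any measurement below.

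Across the 5 libraries 14344 barcodes carried 19982067 to 42012988 unique molecular identifiers (UMIs) per library, and 14317 barcodes passed the filters. The median per barcode was 5345 UMIs in OVX, 8698 in OVX_E2, 7861 in OVX_E2_P4, 8116 in OVX_E2_PBDE and 5348 in OVX_E2_P4_PBDE. Cell types were assigned to clusters by fixed markers. Fibroblast-like barcodes numbered 2564 in OVX, 937 in OVX_E2, 948 in OVX_E2_P4, 1918 in OVX_E2_PBDE and 888 in OVX_E2_P4_PBDE, and hormone-sensing luminal (L-Hor-like) barcodes 92 in OVX, 475 in OVX_E2, 761 in OVX_E2_P4, 608 in OVX_E2_PBDE and 602 in OVX_E2_P4_PBDE. Secretory alveolar luminal (L-Alv-like) barcodes numbered 144 in OVX_E2, 578 in OVX_E2_P4, 204 in OVX_E2_PBDE and 124 in OVX_E2_P4_PBDE, with no such cluster in OVX. Smaller compartments held 59 to 147 basal-like, 55 to 164 hematopoietic-like and 27 to 72 endothelial-like barcodes, and 37 to 132 proliferating luminal-like barcodes in the 4 E2 libraries. Basal-like barcodes summed 9583 to 13547 CPM over 6 basal markers in 4 libraries, but 5293 CPM in OVX_E2_P4_PBDE, where luminal markers reached 4030.0 CPM against 1279 to 1766 CPM elsewhere. Endothelial-like barcodes also carried pericyte markers (595 to 963 CPM against 2776 to 3472 CPM of endothelial markers). Pairs of libraries shared 3 to 15 barcodes. The identifiers of both PBDE libraries place them together and apart from the other 3. The sources used here do not say whether they were prepared or sequenced apart, so a difference in preparation could not be told from PBDE food.

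The 10 genes together made up 1.16% of all UMIs in OVX and 0.656 to 0.743% in the 4 libraries given E2. Levels below are UMIs of a gene per 1000000 UMIs of the same compartment (CPM). A 3′ UMI counts a transcript once whatever its length, so CPM of different genes needs no scaling by length. Other differences in capture between genes were not measured, and comparisons between genes below carry that limit. Endothelial-like barcodes had the highest summed level of the 10 genes in every library: 14219.7 CPM in OVX, 13155 in OVX_E2, 8152 in OVX_E2_P4, 10376 in OVX_E2_PBDE and 13030.4 in OVX_E2_P4_PBDE. Hematopoietic-like barcodes had the lowest in every library: 7277 CPM in OVX, 3246 in OVX_E2, 3755 in OVX_E2_P4, 3901 in OVX_E2_PBDE and 3769 in OVX_E2_P4_PBDE. In between, basal-like barcodes stood at 13800.1 CPM in OVX and at 5629 to 7006 CPM in the E2 libraries, and fibroblast-like barcodes at 12892 and 6727 to 10054 CPM. Luminal compartments were lower than fibroblasts in each library, with 5999 to 9625 CPM in L-Hor-like and 4873 to 5534 CPM in L-Alv-like barcodes. The plot of levels by cell type shows the 10 genes one by one.

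**Figure D1:**
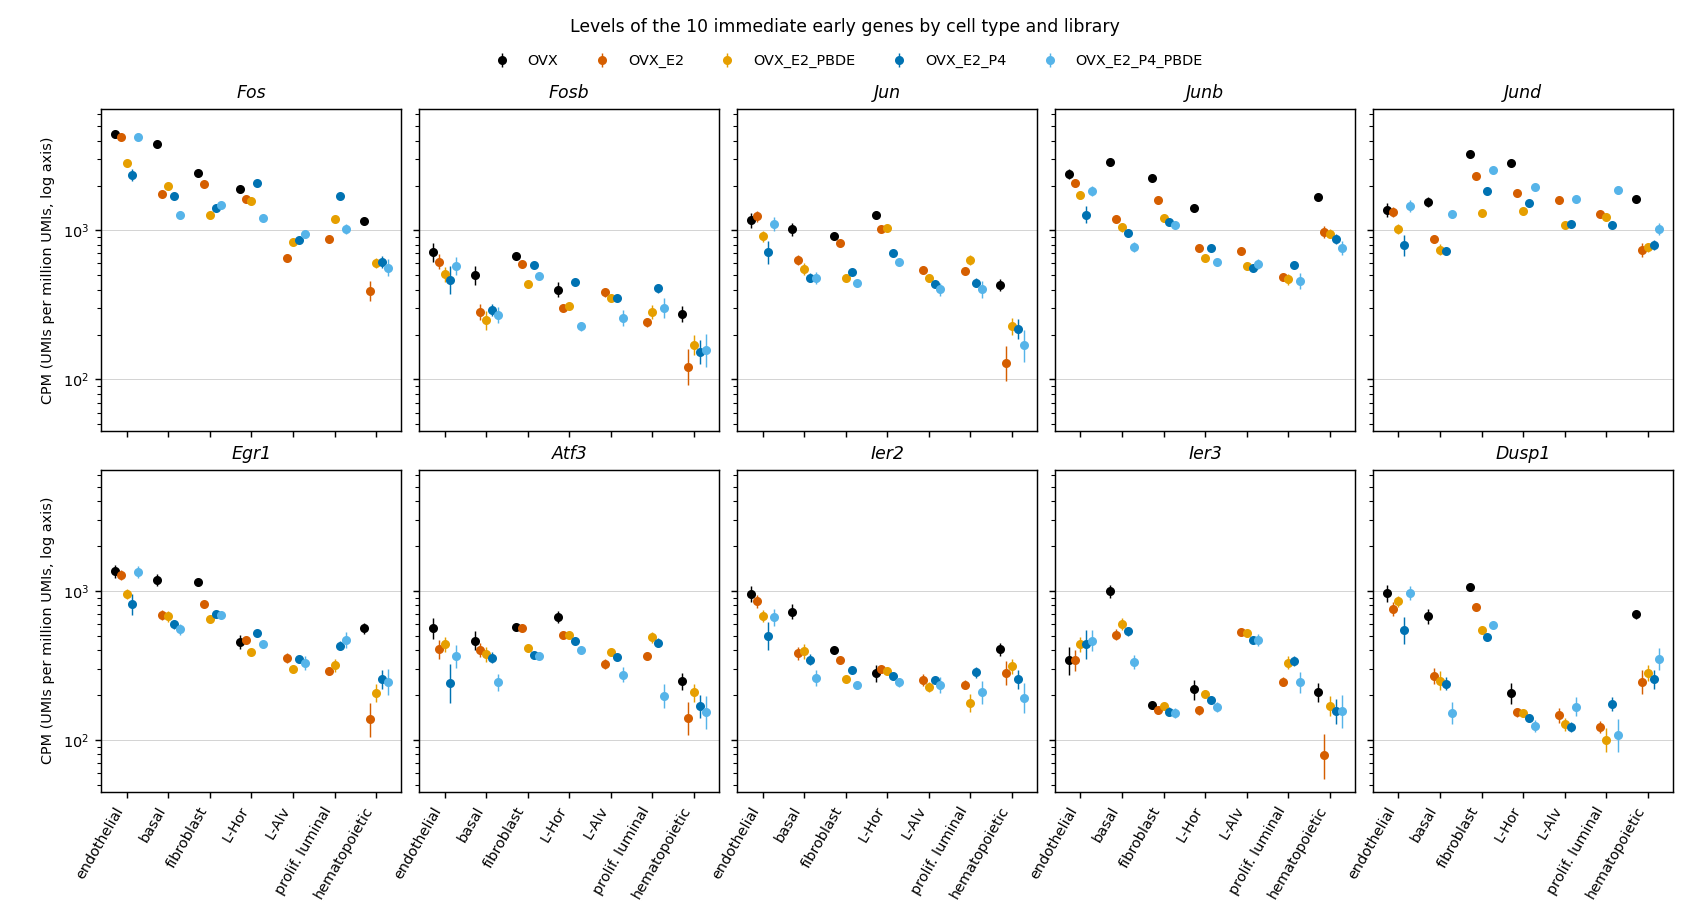
Levels of the 10 immediate early genes (CPM, log axis) in 7 cell types, 1 panel per gene, with 1 point per library and bars for exact 95% Poisson intervals of counting error. *Fos*, *Egr1* and *Ier2* were highest in endothelial-like barcodes in all 5 libraries, *Ier3* peaked in basal-like or L-Alv-like barcodes, and *Dusp1* was low in every luminal compartment.

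*Fos*, the founding member of the FOS family, had the widest range among the AP-1 genes, from 393 to 4403 CPM. In endothelial-like barcodes it stood at 4403 CPM in OVX, 4248 in OVX_E2, 2352 in OVX_E2_P4, 2853 in OVX_E2_PBDE and 4248 in OVX_E2_P4_PBDE. In fibroblast-like barcodes it was lower, with 2432 CPM in OVX, 2062 in OVX_E2, 1419.9 in OVX_E2_P4, 1276 in OVX_E2_PBDE and 1487 in OVX_E2_P4_PBDE. L-Hor-like barcodes held 1897 CPM in OVX, 1612 in OVX_E2, 2067 in OVX_E2_P4, 1574 in OVX_E2_PBDE and 1215 in OVX_E2_P4_PBDE. OVX_E2_P4 was thus the lowest library in endothelial-like and the highest in L-Hor-like barcodes. Basal-like barcodes ranged from 1276 CPM (95% interval 1205 to 1349.9, 1212 UMIs) to 3806 CPM (95% interval 3617 to 4002, 1520 UMIs). L-Alv-like barcodes held 658 CPM in OVX_E2, 857 in OVX_E2_P4, 833 in OVX_E2_PBDE and 944 in OVX_E2_P4_PBDE, below L-Hor-like barcodes in each of these 4 libraries. The hematopoietic-like level was the lowest of all types in each library, at 1157 CPM in OVX, 393 in OVX_E2, 613 in OVX_E2_P4, 605 in OVX_E2_PBDE and 562 in OVX_E2_P4_PBDE. From highest to lowest type the ratio was 3.81 in OVX, 10.8 in OVX_E2, 3.84 in OVX_E2_P4, 4.71 in OVX_E2_PBDE and 7.55 in OVX_E2_P4_PBDE. Neighbours in that order had overlapping counting intervals in 0, 0, 1, 1 and 2 places in these libraries. *Fosb*, its paralog, ran lower throughout: 468 to 716 CPM in endothelial-like, 434 to 677 CPM in fibroblast-like, 259 to 385 CPM in L-Alv-like and 227 to 448 CPM in L-Hor-like barcodes. Its hematopoietic-like level was again the lowest, at 122 to 274 CPM.

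The 3 JUN genes differed in where they were high. *Jun* encodes the classic AP-1 partner of FOS. In L-Hor-like barcodes it reached 1269 CPM in OVX, 1028 in OVX_E2, 705 in OVX_E2_P4, 1031 in OVX_E2_PBDE and 614 in OVX_E2_P4_PBDE. In endothelial-like barcodes it reached 1168 CPM in OVX, 1242 in OVX_E2, 716 in OVX_E2_P4, 912 in OVX_E2_PBDE and 1105 in OVX_E2_P4_PBDE. Both compartments exceeded L-Alv-like barcodes (401 to 546 CPM) in each library that had all 3. *Junb*, which can act as an antagonist of *Jun*, was high outside the luminal lineage. Its endothelial-like level was 2390.1 CPM in OVX, 2087 in OVX_E2, 1278 in OVX_E2_P4, 1729 in OVX_E2_PBDE and 1839 in OVX_E2_P4_PBDE. Its fibroblast-like level was 2259 CPM in OVX, 1604 in OVX_E2, 1139.5 in OVX_E2_P4, 1203 in OVX_E2_PBDE and 1093 in OVX_E2_P4_PBDE. Its largest single value was 2887 CPM (95% interval 2722 to 3058, 1153 UMIs) in basal-like barcodes of OVX. In contrast to *Fos*, *Junb* was not low in hematopoietic-like barcodes, with 761 to 1671 CPM, and was lowest in a luminal compartment in every library. *Jund*, the member known for steady expression rather than fast induction, was the most abundant of the 10 in fibroblast-like barcodes. There it stood at 3245 CPM in OVX, 2311 in OVX_E2, 1849 in OVX_E2_P4, 1299 in OVX_E2_PBDE and 2542 in OVX_E2_P4_PBDE. L-Hor-like barcodes held 2814 CPM in OVX, 1786 in OVX_E2, 1522 in OVX_E2_P4, 1354 in OVX_E2_PBDE and 1957 in OVX_E2_P4_PBDE. L-Alv-like barcodes held 1609.9 CPM in OVX_E2, 1111 in OVX_E2_P4, 1082 in OVX_E2_PBDE and 1632 in OVX_E2_P4_PBDE. Basal-like (722 to 1545 CPM) and endothelial-like (793 to 1457 CPM) barcodes held less *Jund* than fibroblast-like and L-Hor-like ones in each library. *Jund* was thus highest in OVX and OVX_E2_P4_PBDE, the 2 libraries with the lowest median UMIs per barcode, in fibroblast-like and L-Hor-like barcodes. The part of depth in this was not tested.

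*Egr1* was highest where *Fos* was highest. Its endothelial-like level was 1351 CPM in OVX, 1279 in OVX_E2, 815 in OVX_E2_P4, 955 in OVX_E2_PBDE and 1342 in OVX_E2_P4_PBDE. Its fibroblast-like level was 1157 CPM in OVX, 818 in OVX_E2, 698 in OVX_E2_P4, 651 in OVX_E2_PBDE and 689 in OVX_E2_P4_PBDE. L-Hor-like barcodes held only 389.8 to 524 CPM, and hematopoietic-like barcodes 138 to 563 CPM. *Atf3* had a different order and was highest in L-Hor-like barcodes in 4 of 5 libraries, at 669 CPM in OVX, 509.8 in OVX_E2, 463 in OVX_E2_P4, 507 in OVX_E2_PBDE and 402 in OVX_E2_P4_PBDE. In fibroblast-like barcodes it stood at 571 CPM in OVX, 563 in OVX_E2, 373 in OVX_E2_P4, 411 in OVX_E2_PBDE and 368 in OVX_E2_P4_PBDE, and OVX_E2 was the library in which fibroblasts came first. Hematopoietic-like barcodes were lowest for *Atf3* in every library, with 140.1 to 247 CPM. Neighbours in the *Atf3* order had overlapping counting intervals in 2 places in OVX, 2 in OVX_E2 and 4 in OVX_E2_P4. There were 5 such places in OVX_E2_PBDE and 6 in OVX_E2_P4_PBDE, where L-Hor-like and fibroblast-like barcodes thus overlapped.

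*Ier2* was highest in endothelial-like barcodes, with 958 CPM in OVX, 849.6 in OVX_E2, 501 in OVX_E2_P4, 677 in OVX_E2_PBDE and 664 in OVX_E2_P4_PBDE, and lay between 234 and 401 CPM in fibroblast-like barcodes. *Ier3*, which is linked to cell survival, was highest in basal-like or L-Alv-like barcodes in every library. Basal-like barcodes held 996 CPM in OVX, 510.0 in OVX_E2, 535 in OVX_E2_P4, 598 in OVX_E2_PBDE and 335 in OVX_E2_P4_PBDE. L-Alv-like barcodes held 532 CPM in OVX_E2, 466 in OVX_E2_P4, 520.4 in OVX_E2_PBDE and 469 in OVX_E2_P4_PBDE. Endothelial-like barcodes lay above the remaining types in each library, with 343 CPM in OVX, 343 in OVX_E2, 441 in OVX_E2_P4, 438 in OVX_E2_PBDE and 465 in OVX_E2_P4_PBDE. Fibroblast-like barcodes held 152 to 172 CPM and L-Hor-like barcodes 159 to 219 CPM. *Ier3* thus set both basal-like and L-Alv-like barcodes apart from L-Hor-like barcodes in every library that held them, beyond the counting intervals. *Dusp1* was instead high in fibroblast-like and endothelial-like barcodes. In fibroblast-like barcodes it reached 1066 CPM in OVX, 776 in OVX_E2, 491 in OVX_E2_P4, 551 in OVX_E2_PBDE and 593 in OVX_E2_P4_PBDE. In endothelial-like barcodes it reached 961 CPM in OVX, 759 in OVX_E2, 545 in OVX_E2_P4, 850.0 in OVX_E2_PBDE and 966 in OVX_E2_P4_PBDE. Luminal levels were 124 to 206 CPM in L-Hor-like, 122 to 168 CPM in L-Alv-like and 100.2 to 175 CPM in proliferating luminal-like barcodes. In basal-like barcodes *Dusp1* stood at 676 CPM in OVX and 153 to 269 CPM in the E2 libraries.

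The make-up of the summed UMIs of the 10 genes does not depend on the library total. *Jund* made up 19.3 to 31.4% of them in fibroblast-like, 21.0 to 32.6% in L-Hor-like and 22.1 to 30.7% in L-Alv-like barcodes, but 9.64 to 11.2% in endothelial-like barcodes. *Fos* made up 27.5 to 32.6% in endothelial-like and 22.7 to 28.9% in basal-like barcodes, against 12.1 to 16.3% in hematopoietic-like barcodes. Immune barcodes were led by *Junb*, with 20.2 to 30.1%. *Ier3* held 8.84 to 10.7% in L-Alv-like barcodes and 1.34 to 2.52% in fibroblast-like barcodes. *Dusp1* held 6.52 to 8.27% in fibroblast-like and 1.99 to 2.36% in L-Hor-like barcodes. The one library in which *Junb* did not lead the hematopoietic-like barcodes was OVX_E2_P4_PBDE, where *Jund* exceeded it (20.2% for *Junb* and 27.1% for *Jund*).

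Shares of barcodes with a UMI were taken after each barcode was thinned to 3000 UMIs; the lowest barcode held 3374, so none was left out. The share of fibroblast-like barcodes with a *Fos* UMI was 83.5% in OVX, 80.6% in OVX_E2, 78.6% in OVX_E2_P4, 70.3% in OVX_E2_PBDE and 78.0% in OVX_E2_P4_PBDE. In endothelial-like barcodes the share was 92.6 to 100%, in L-Hor-like barcodes 84.1 to 93.0%, and in hematopoietic-like barcodes 56.4 to 81.7%. Without thinning the fibroblast-like and hematopoietic-like shares were 85.9 to 92.8% and 78.7 to 92.7%, at median depths of 4252 to 7032 and 4886 to 7384 UMIs. No type in the tissue is known to lack these genes, so no share expected from free RNA alone could be read from these data. *Jund* was found in 92.8 to 100% of L-Hor-like and 74.5 to 88% of hematopoietic-like barcodes. The sharpest contrasts between types were those of *Ier3* and *Dusp1*. *Ier3* was found in 56.2 to 91.5% of basal-like and 51.6 to 66.7% of L-Alv-like barcodes, against 27.5 to 31.5% of fibroblast-like and 12.7 to 36.6% of hematopoietic-like barcodes. *Dusp1* was found in 81.5 to 93.1% of endothelial-like and 58.1 to 78.0% of fibroblast-like barcodes, and in 26.8 to 40.2% of L-Hor-like barcodes. For the largest group the interval was narrow, with 78.0% (76.3 to 79.6%, n = 2564 barcodes) for *Dusp1* in OVX fibroblast-like barcodes, and in small groups it was wide, with 81.5% (61.9 to 93.7%, n = 27 barcodes) in endothelial-like barcodes of OVX_E2_P4.

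Single barcodes of one type varied several-fold. At 3000 UMIs per barcode, the summed UMIs of the 10 genes in OVX fibroblast-like barcodes had a 10th percentile of 14, a median of 31 and a 90th percentile of 80. In OVX_E2_PBDE the same percentiles were 7, 16 and 39, so the whole distribution was lower and not only its top. OVX basal-like barcodes spread from 16 through 33 to 98, and OVX L-Hor-like barcodes from 13.1 through 25 to 46. The basal-like spread was thus the wider on the high side. All 10 genes were detected at once in 27.3% of OVX endothelial-like barcodes and 4.80% of OVX fibroblast-like barcodes. Among all barcodes of the 7 types, a thinned barcode with 0 UMIs of the 10 genes was met only among fibroblast-like barcodes of OVX_E2_PBDE, at 0.0521% of them.

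**Figure D2:**
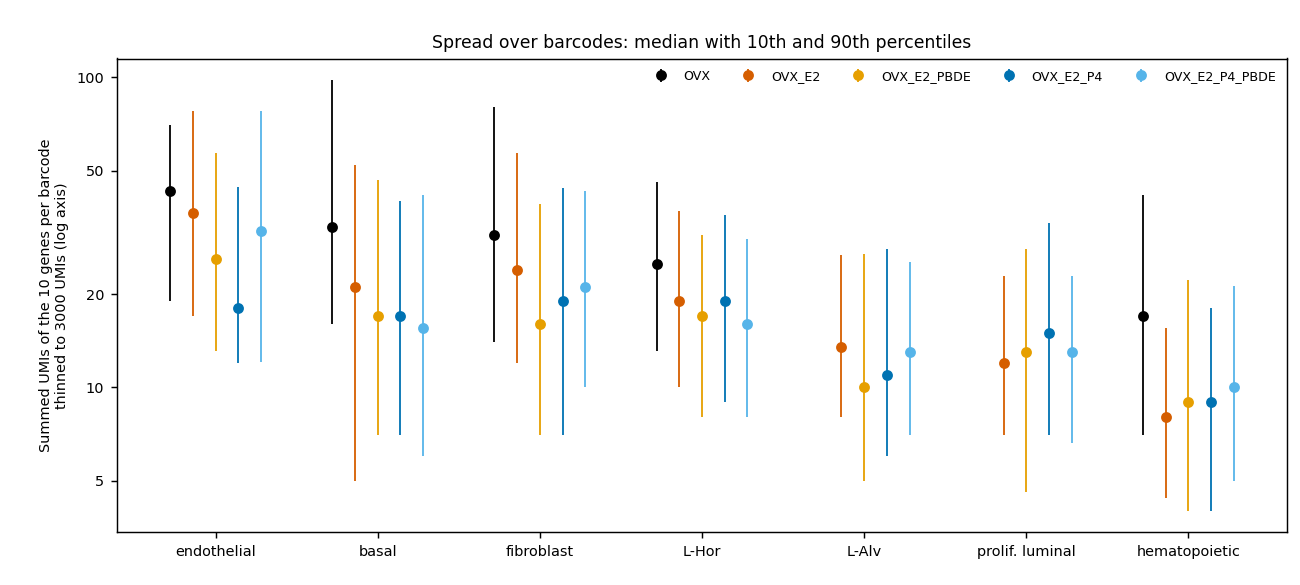
Summed UMIs of the 10 immediate early genes per barcode after thinning to 3000 UMIs (log axis), by cell type and library. Points are medians and lines run from the 10th to the 90th percentile of barcodes; OVX fibroblast-like barcodes ran from 14 to 80 and hematopoietic-like barcodes of OVX_E2 from 4.40 to 15.6.

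Within fibroblast-like barcodes some members varied together. Spearman's rho between *Fos* and *Jun* over thinned barcodes was 0.639 in OVX, 0.622 in OVX_E2, 0.536 in OVX_E2_P4, 0.483 in OVX_E2_PBDE and 0.439 in OVX_E2_P4_PBDE. Between *Fos* and *Egr1* it was 0.540 in OVX, 0.50 in OVX_E2, 0.495 in OVX_E2_P4, 0.482 in OVX_E2_PBDE and 0.444 in OVX_E2_P4_PBDE. The median over the 45 pairs of members was only 0.123 to 0.173, and the highest pair was *Fos* with *Jun* in 4 libraries and *Fos* with *Egr1* in OVX_E2_P4_PBDE. In L-Hor-like barcodes *Fos* and *Jun* were less closely tied (0.048 in OVX, 0.322 in OVX_E2, 0.282 in OVX_E2_P4, 0.229 in OVX_E2_PBDE and 0.237 in OVX_E2_P4_PBDE). There *Fosb* and *Atf3* had a positive rho in each library, at 0.329 in OVX, 0.217 in OVX_E2, 0.318 in OVX_E2_P4, 0.273 in OVX_E2_PBDE and 0.30 in OVX_E2_P4_PBDE. They were the highest L-Hor-like pair in OVX_E2_P4 and OVX_E2_PBDE only. The highest pair was *Jun* with *Jund* in OVX (0.418), *Fos* with *Jun* in OVX_E2 and *Jund* with *Atf3* in OVX_E2_P4_PBDE (0.312). These are descriptions over barcodes that share a library, a depth and a base of sparse counts, and no p is given. The fibroblast-like values pool the kinds of cluster described below, whose levels of *Fos*, *Jun* and *Egr1* differed. The part of this pooling in the rho values, and in their contrast with L-Hor-like barcodes, was not tested.

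Fibroblast-like barcodes were divided into 2 kinds of cluster in every library. Barcodes in clusters led by *Pi16*, a marker of one stromal fibroblast state, numbered 1322 in OVX, 599 in OVX_E2, 505 in OVX_E2_P4, 1337 in OVX_E2_PBDE and 659 in OVX_E2_P4_PBDE. Barcodes in the other clusters, led by genes such as *Gdf10*, *Smoc2*, *Mfap4* or *Crabp1*, numbered 1242 in OVX, 338 in OVX_E2, 443 in OVX_E2_P4, 581 in OVX_E2_PBDE and 229 in OVX_E2_P4_PBDE. The 10 genes summed higher in the clusters not led by *Pi16* in each library, with ratios of 1.83 in OVX, 1.23 in OVX_E2, 1.27 in OVX_E2_P4, 1.51 in OVX_E2_PBDE and 1.44 in OVX_E2_P4_PBDE. This comparison was made within a library, so both sides shared a preparation, but not their depth per barcode. Median UMIs in other and *Pi16*-led clusters were 4519.5 and 5733 in OVX, 6552 and 6680 in OVX_E2 and 5326 and 5748 in OVX_E2_P4. They were 6509 and 7194 in OVX_E2_PBDE and 4325 and 4244 in OVX_E2_P4_PBDE. Median mitochondrial shares were 2.08 and 1.52% in OVX, 2.11 and 1.11% in OVX_E2 and 3.03 and 1.55% in OVX_E2_P4. They were 2.43 and 1.25% in OVX_E2_PBDE and 2.01 and 1.13% in OVX_E2_P4_PBDE. The part of these in the ratios was not tested. Clusters were formed on variable genes from which the 10, and the other immediate early and heat shock genes listed below, had been left out. The ratios are given as a description.

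The members did not follow this split alike. *Ier2* ratios were 2.42 in OVX, 2.63 in OVX_E2, 2.50 in OVX_E2_P4, 2.29 in OVX_E2_PBDE and 2.63 in OVX_E2_P4_PBDE. *Jun* (1.62 to 2.88), *Fos* (1.28 to 2.12) and *Egr1* (1.36 to 2.06) were higher outside the *Pi16*-led clusters in every library as well. In OVX the *Jun* ratio was 2.88 (2.77 to 2.99), and in OVX_E2_P4 it was 1.78 (1.65 to 1.92). *Fosb* (0.920 to 2.09), *Jund* (1.11 to 2.05) and *Dusp1* (1.07 to 1.70) had their largest ratio in OVX. *Atf3* lay on the other side of the split. Its ratios were 1.01 in OVX, 0.440 in OVX_E2, 0.489 in OVX_E2_P4, 0.686 in OVX_E2_PBDE and 0.761 in OVX_E2_P4_PBDE, so it was lower outside the *Pi16*-led clusters in 4 libraries and within counting error of 1 in OVX, at 1.01 (0.968 to 1.06). *Junb* differed less, with ratios of 1.23 to 1.34. *Ier3* in OVX was lower outside the *Pi16*-led clusters, with a ratio of 0.592 (0.542 to 0.646).

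**Figure D3:**
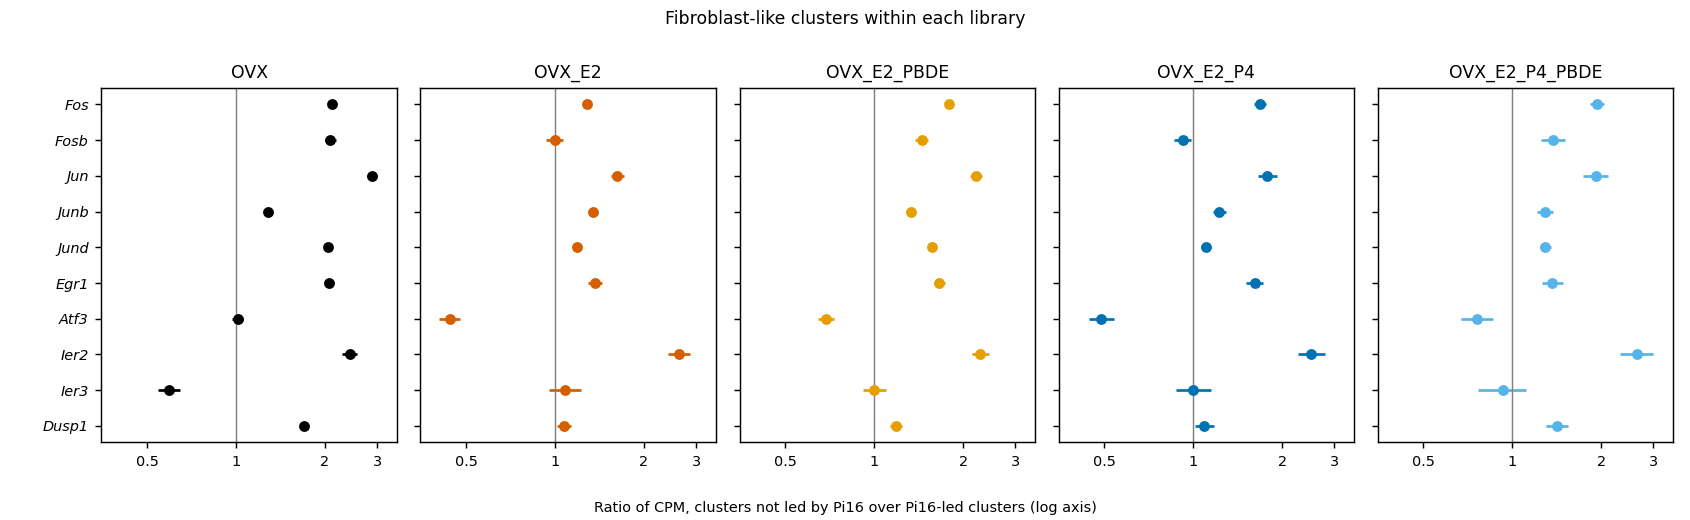
Ratio of CPM between fibroblast-like clusters not led by *Pi16* and *Pi16*-led clusters (log axis) for each immediate early gene, 1 panel per library; bars are exact 95% intervals of counting error and the vertical line marks a ratio of 1. *Fos*, *Jun*, *Egr1* and *Ier2* lay right of the line in all 5 libraries, and *Atf3* lay left of it in the 4 E2 libraries.

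In OVX the clusters not led by *Pi16* differed among themselves. Cluster 1 (577 barcodes) held 22059 CPM of the 10 genes and cluster 4 (103 barcodes) 22842 CPM, while cluster 2 (562 barcodes) held 11927 and the *Pi16*-led cluster 9473 CPM. Hemoglobin transcripts led cluster 1, with *Hbb-bs* at 359 CPM against 10.7 in cluster 2 and 126 in the *Pi16*-led cluster. Cluster 4, at the same level of the 10 genes, had *Hbb-bs* at 11.4 CPM. The part of hemoglobin-bearing material in the level of cluster 1 was not tested.

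Immune barcodes were split, by marker UMIs and limits set after the data had been seen, into myeloid barcodes and T or NK barcodes. In T or NK barcodes the 10 genes summed to 9029 CPM in OVX, 3505 in OVX_E2, 4221 in OVX_E2_P4, 4866 in OVX_E2_PBDE and 3396 in OVX_E2_P4_PBDE. In myeloid barcodes they summed to 5348 CPM in OVX, 2902 in OVX_E2, 3386 in OVX_E2_P4, 3393 in OVX_E2_PBDE and 3443 in OVX_E2_P4_PBDE. T or NK barcodes were higher in 4 of 5 libraries, and both kinds were highest in OVX. *Junb* was the leading member in T or NK barcodes in every library but OVX_E2_P4_PBDE, with 2251 CPM in OVX, 1195 in OVX_E2, 1290.1 in OVX_E2_P4, 1408 in OVX_E2_PBDE and 830.1 in OVX_E2_P4_PBDE. *Dusp1* was higher in myeloid than in T or NK barcodes in all 5 libraries, and so was *Ier3*. Myeloid *Ier3* stood at 274 CPM in OVX, 119.9 in OVX_E2, 213 in OVX_E2_P4, 215 in OVX_E2_PBDE and 194 in OVX_E2_P4_PBDE. *Ier2* had the opposite order in all 5 libraries. T or NK groups held 14 to 55 barcodes and myeloid groups 34 to 78. The T or NK barcodes carried summed fibroblast markers of 1068 to 15744 CPM, the myeloid ones 1098 to 5865 CPM. Their part in these levels was not tested.

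The first comparison, OVX_E2 against OVX, asks what E2 changed in ovariectomized mice. Most members were lower in OVX_E2 in every compartment held by both libraries, and the lowest ratios were found in basal-like and hematopoietic-like barcodes. Basal-like barcodes had 10 of 10 ratios below 1 (9 to 10 over the alternatives tried that keep cell types), and 3 were past 2-fold: *Dusp1* at 0.397 (0.334 to 0.473), *Junb* at 0.416 (0.383 to 0.452) and *Fos* at 0.461 (0.430 to 0.495). Among all genes that reached 50 UMIs when both libraries were added up, 14% were past 2-fold there. The median log2 ratio was -0.87 for the members and -0.06 for all genes. *Fos* itself went from 3806 CPM (95% interval 3617 to 4002, 1520 UMIs) to 1754 CPM (95% interval 1671 to 1841, 1665 UMIs). With 20% of barcodes, those with the highest Scrublet doublet scores, left out, 1 member was past 2-fold against 11.7% of all genes. The groups held 59 and 71 basal-like barcodes. Their summed fibroblast markers were 2887 CPM in OVX and 1454 in OVX_E2, and the part of these in the lower levels was not tested.

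Hematopoietic-like barcodes also had 10 of 10 ratios below 1, with 7 past 2-fold against 11.5% of all genes. *Egr1* was at 0.245 (0.185 to 0.319), *Jun* at 0.299 (0.223 to 0.395), *Fos* at 0.340 (0.288 to 0.399), *Dusp1* at 0.354 (0.287 to 0.434), *Ier3* at 0.379 (0.257 to 0.545), *Fosb* at 0.445 (0.326 to 0.598) and *Jund* at 0.456 (0.403 to 0.514). Fibroblast markers moved the same way in these barcodes: the 7 markers summed to 9569.7 CPM in OVX, 3384 in OVX_E2, 1305 in OVX_E2_P4, 5991 in OVX_E2_PBDE and 3366 in OVX_E2_P4_PBDE. Their part in the lower levels was not tested. The count fell with other choices of barcodes: 4 members were past 2-fold, against 8.68% of all genes, when barcodes were assigned on their own markers. Leaving out the 20% highest Scrublet scores left 75 barcodes in OVX and 7 in OVX_E2, with 3 members past 2-fold against 26.4% of all genes, and turned *Fos* to 1.09, *Fosb* to 1.32, *Jund* to 1.08, *Junb* to 1.06 and *Atf3* to 1.59. Myeloid and T or NK barcodes taken apart were each lower in OVX_E2, with *Fos* at 647 and 375 CPM in the former and at 1516 and 487 CPM in the latter.

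In L-Hor-like barcodes, which carry the receptors for E2 and P4, 8 of 10 ratios were below 1 (6 to 9 over the alternatives) and 0 were past 2-fold, against 9.25% of all genes. *Junb* at 0.539 (0.504 to 0.577) and *Jund* at 0.635 (0.605 to 0.665) were lowest, while *Egr1* stood at 1.02 (0.913 to 1.15) and *Ier2* at 1.06 (0.921 to 1.23). The median log2 ratio was -0.40 for the members, but all genes together were shifted by -0.23. Summed fibroblast markers in these barcodes were 2738 CPM in OVX and 1715 in OVX_E2, and their part was not tested. Fibroblast-like barcodes had 10 of 10 ratios below 1 (9 to 10 over the alternatives that kept all fibroblast clusters). They lay between 0.707 for *Egr1* and 0.986 for *Atf3*, with 0 past 2-fold against 4.16% of all genes. In *Pi16*-led clusters 6 of 10 ratios were below 1 and the 10 genes summed to 9473 CPM in OVX and 9280.2 CPM in OVX_E2. *Junb* was lowest there at 0.710 (0.689 to 0.731), while *Fos* was at 1.14 (1.11 to 1.17), *Fosb* at 1.29 (1.22 to 1.36), *Jun* at 1.34 (1.27 to 1.41) and *Atf3* at 1.25 (1.19 to 1.31), all higher in OVX_E2. In the other clusters 9 of 10 ratios were below 1, and the same 4 genes were at 0.691, 0.616, 0.754 and 0.542. With OVX cluster 1 left out, the ratio of *Fos* was 1.15, that of *Jun* 1.33 and that of *Ier2* 1.16, and 5 of 10 ratios were above 1. Endothelial-like barcodes had 8 of 10 ratios below 1 (5 to 8 over the alternatives), from 0.727 for *Atf3* to 1.06 for *Jun*, and 0 past 2-fold against 3.62% of all genes.

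**Figure D4:**
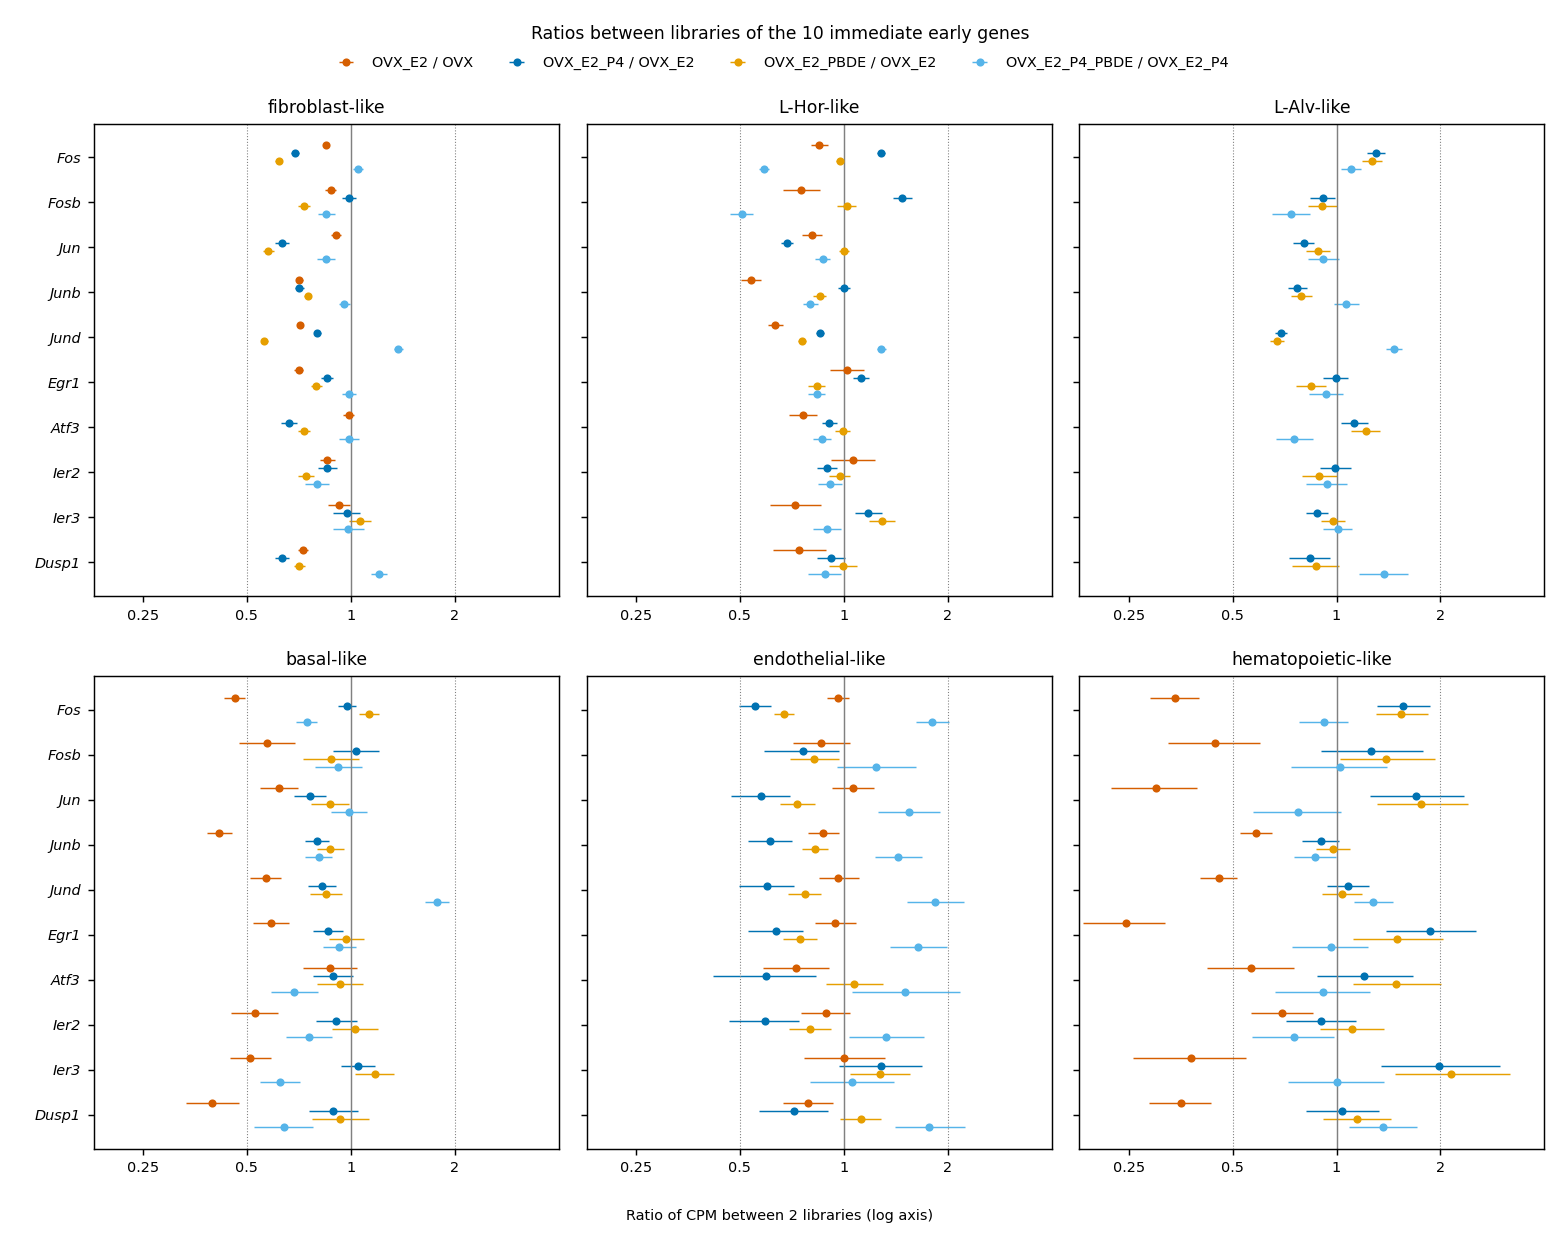
Ratios of CPM between libraries for the 10 immediate early genes (log axis) in 6 cell types, with exact 95% intervals of counting error; solid and dotted vertical lines mark 1 and 2-fold. In OVX_E2 against OVX all 10 ratios lay below 1 in basal-like, hematopoietic-like and fibroblast-like barcodes. Over the alternatives that kept all fibroblast clusters these counts were 9 to 10, 5 to 10 and 9 to 10. In fibroblast-like barcodes 6 of 10 lay below 1 in *Pi16*-led clusters alone, and 5 lay above 1 with OVX cluster 1 left out. In OVX_E2_P4_PBDE against OVX_E2_P4 all 10 lay above 1 in endothelial-like barcodes (8 to 10 over the alternatives).

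OVX_E2_P4 was set against OVX_E2 to follow P4 given on top of E2. Before alternatives were tried, no member was past 2-fold in any of the 6 compartments. When barcodes were assigned on their own markers, 4 were in endothelial-like barcodes, against 17.2% of all genes. Other scalings put *Ier3* and *Egr1* past 2-fold in hematopoietic-like barcodes, as given below. Among all genes the share past 2-fold was 1.58% in L-Hor-like, 2.1% in L-Alv-like, 2.81% in basal-like, 1.61% in fibroblast-like, 7.92% in hematopoietic-like and 4.19% in endothelial-like barcodes. In L-Hor-like barcodes the AP-1 genes diverged. *Fos* was at 1.28 (1.25 to 1.32) and *Fosb* at 1.48 (1.39 to 1.57), while *Jun* was at 0.685 (0.659 to 0.712) and *Jund* at 0.852 (0.829 to 0.877). L-Alv-like barcodes likewise had *Fos* at 1.30 (1.23 to 1.39) and *Jund* at 0.690 (0.662 to 0.720), but *Fosb* at 0.912 (0.840 to 0.991). Proliferating luminal-like barcodes, 132 in OVX_E2 and 93 in OVX_E2_P4, had *Fos* at 1.93 (1.84 to 2.03), *Fosb* at 1.69 (1.54 to 1.86) and *Jun* at 0.839 (0.775 to 0.908). For them the shift of all genes was not computed. All 3 luminal compartments thus held more *Fos* and less *Jun* in OVX_E2_P4 than in OVX_E2. The other library with P4, OVX_E2_P4_PBDE, had the lowest L-Hor-like *Fos* of the 5 libraries (1215 CPM). It had the highest L-Alv-like *Fos* of 4 (944 CPM). In fibroblast-like barcodes all 10 ratios were below 1 (8 with the median of all genes set to a ratio of 1, where *Fosb* and *Ier3* passed it), with *Dusp1* (0.633, 0.604 to 0.663), *Jun* (0.632, 0.605 to 0.662), *Atf3* (0.662, 0.627 to 0.698) and *Fos* (0.689, 0.670 to 0.708) lowest. The median log2 ratio there was -0.41 for the members and -0.07 for all genes. Endothelial-like barcodes, 44 in OVX_E2 and 27 in OVX_E2_P4, had 9 ratios between 0.554 and 0.760 and *Ier3* at 1.28 (0.969 to 1.69). With a mitochondrial limit of 5%, which left 23 and 10 barcodes, 6 of 10 were below 1, and *Fosb*, *Jun* and *Egr1* were at 1.57, 1.07 and 1.35. Leaving out the 20% highest Scrublet scores left 20 and 1 endothelial-like barcodes. Summed luminal markers in endothelial-like barcodes were 463 CPM in OVX_E2 and 1013 in OVX_E2_P4, and their part was not tested. In hematopoietic-like barcodes 8 ratios were above 1, up to 1.98 (1.34 to 2.98) for *Ier3*, while all genes were shifted by -0.11. With that shift taken out, *Ier3* was at 2.13 and *Egr1* at 2.01. Without mitochondrial and ribosomal protein genes in the total they were at 2.14 and 2.01. With the 20% highest Scrublet scores left out, on 7 and 44 barcodes, 8 ratios were instead below 1, among them *Fos* at 0.434, *Jund* at 0.445 and *Atf3* at 0.304.

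PBDE food given with E2 alone was followed in OVX_E2_PBDE against OVX_E2. In 5 compartments 0 members were past 2-fold, against 1.78% of all genes in L-Hor-like, 1.48% in L-Alv-like, 2.77% in basal-like, 1.41% in fibroblast-like and 2.9% in endothelial-like barcodes. The exception was *Ier3* in hematopoietic-like barcodes, at 2.14 (1.48 to 3.18) on 35 and 164 UMIs, where 7.11% of all genes were past 2-fold. In fibroblast-like barcodes 9 ratios were below 1, with *Jund* at 0.562 (0.550 to 0.574), *Jun* at 0.577 (0.557 to 0.598) and *Fos* at 0.619 (0.605 to 0.633), and *Ier3* was at 1.07 (0.991 to 1.15). The members' median log2 ratio was -0.45, beside a shift of -0.17 for all genes. Both kinds of fibroblast cluster had *Jund* and *Fos* below 1, at 0.515 and 0.555 in *Pi16*-led and at 0.683 and 0.777 in other clusters. L-Hor-like barcodes kept *Fos* (0.976, 0.948 to 1.00) and *Jun* (1.00, 0.967 to 1.04) near 1, with *Jund* at 0.758 (0.737 to 0.781) and *Ier3* at 1.29 (1.19 to 1.41). All genes there were shifted by -0.15, and with that shift taken out 3 rather than 7 of the 10 ratios were below 1. In L-Alv-like barcodes, with a shift of -0.15, *Fos* was at 1.27 (1.18 to 1.36) and *Jund* at 0.672 (0.640 to 0.706). Basal-like ratios ran from 0.849 for *Jund* to 1.17 for *Ier3*, beside a shift of -0.12. Endothelial-like ratios ran from 0.672 (0.630 to 0.716) for *Fos* to 1.28 (1.05 to 1.56) for *Ier3*, and 9 of 10 hematopoietic-like ratios were above 1. The hematopoietic-like count above 1 ran from 3 to 10 over the alternatives: it was 5 with barcodes assigned on their own markers and 3 with the 20% highest Scrublet scores left out, where *Fos* was at 0.498 and *Jun* at 0.565. In endothelial-like barcodes 7 ratios were below 1, but 1 was with a mitochondrial limit of 5% (23 and 31 barcodes), where *Fos* was at 1.15 and *Egr1* at 1.38.

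PBDE food given with E2 and P4 was followed in OVX_E2_P4_PBDE against OVX_E2_P4. Again 0 members were past 2-fold in the 6 compartments (4 in endothelial-like barcodes when assigned on their own markers, against 18.2% of all genes), against 2.89% of all genes in L-Hor-like, 5.24% in L-Alv-like, 6.95% in basal-like, 2.69% in fibroblast-like, 7.34% in hematopoietic-like and 3.23% in endothelial-like barcodes. In L-Hor-like barcodes 9 of 10 ratios were below 1 (7 to 9 over the alternatives), with *Fosb* at 0.508 (0.470 to 0.548) and *Fos* at 0.588 (0.568 to 0.608), and *Jund* alone was above 1 at 1.29 (1.25 to 1.32). The members' median log2 ratio of -0.20 stood beside a shift of -0.11 for all genes. *Fos* and *Fosb*, the members with the highest ratios of OVX_E2_P4 to OVX_E2 in L-Hor-like barcodes, thus had the lowest ratios of OVX_E2_P4_PBDE to OVX_E2_P4. Both comparisons share the OVX_E2_P4 library, in the numerator of one and the denominator of the other. Endothelial-like barcodes had all 10 ratios above 1 (8 with a mitochondrial limit of 5%), from 1.06 (0.801 to 1.40) for *Ier3* to 1.84 (1.52 to 2.23) for *Jund*, with *Fos* at 1.81 (1.62 to 2.02). They rest on 27 and 58 barcodes, and OVX_E2_P4 was the library with the lowest endothelial-like level of every member but *Ier3*. Leaving out the 20% highest Scrublet scores left 1 and 47 of these barcodes. Summed luminal markers in endothelial-like barcodes were 1013 CPM in OVX_E2_P4 and 889 in OVX_E2_P4_PBDE, against 152 to 463 elsewhere. The part of these in the ratios was not tested. In fibroblast-like barcodes *Jund* (1.37, 1.34 to 1.41) and *Dusp1* (1.21, 1.14 to 1.28) were above 1, and *Ier2* (0.799, 0.737 to 0.866), *Fosb* (0.849, 0.803 to 0.898) and *Jun* (0.850, 0.801 to 0.902) below. Basal-like barcodes had 9 ratios below 1 (7 to 9 over the alternatives) and *Jund* at 1.78 (1.64 to 1.93), but these are the barcodes of OVX_E2_P4_PBDE that carried luminal markers, and luminal compartments held more *Jund* than basal-like ones in every library. The part of those markers was not tested. All genes in them were shifted by -0.12. Outside these 6 compartments, in 93 and 37 proliferating luminal-like barcodes, *Atf3* was past 2-fold at 0.438 (0.358 to 0.531). *Jund* was at 1.71 (1.59 to 1.83) there. The share of all genes past 2-fold and their shift were not computed for proliferating luminal-like barcodes.

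A limit of 1.25 was set after the ratios were seen. Past it, *Jund* lay on opposite sides of its matched-food library without and with P4 in 4 of 6 compartments. Without P4 it was lower with PBDE food in L-Hor-like (0.758, 0.737 to 0.781), L-Alv-like (0.672, 0.640 to 0.706), fibroblast-like (0.562, 0.550 to 0.574) and endothelial-like barcodes (0.770, 0.689 to 0.862). With P4 it was higher in each, at 1.29 (1.25 to 1.32), 1.47 (1.39 to 1.55), 1.37 (1.34 to 1.41) and 1.84 (1.52 to 2.23). Basal-like barcodes also lay on opposite sides of 1, at 0.849 without P4, within that limit, and at 1.78 with P4. In hematopoietic-like barcodes the ratios were 1.04 (0.910 to 1.18) and 1.28 (1.12 to 1.45). Median UMIs per barcode with matched food and with PBDE food were 9525 and 10456 in L-Hor-like and 6643 and 7032 in fibroblast-like barcodes without P4. With P4 they were 8964 and 5557 in the former, and 5586 and 4252 in the latter. In these compartments the deeper library of each pair was thus the one lower in *Jund*. In L-Alv-like barcodes the medians were nearly equal without P4, at 11570.5 and 11565.5, where *Jund* was at 0.672. With P4 they were 8473.5 and 7190.5. In endothelial-like barcodes the medians were 9058 and 8165 without and 6183 and 5154 with P4, so the PBDE library was the shallower in both. The part of depth in the *Jund* ratios was not tested. Over the alternatives tried, the ratio with P4 stayed above 1 in fibroblast-like (1.33 to 1.56), L-Hor-like (1.26 to 1.38) and L-Alv-like barcodes (1.47 to 1.56), and the ratio without P4 below 1 (0.515 to 0.683, 0.737 to 0.844 and 0.641 to 0.769). In endothelial-like barcodes the ratio with P4 ran from 1.25 to 2.67, but that without P4 from 0.749 to 1.03, passing 1 with the 20% highest Scrublet scores left out. That choice left 1 endothelial-like barcode in OVX_E2_P4. The difference between the settings was not tested, since each has 1 library.

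**Figure D5:**
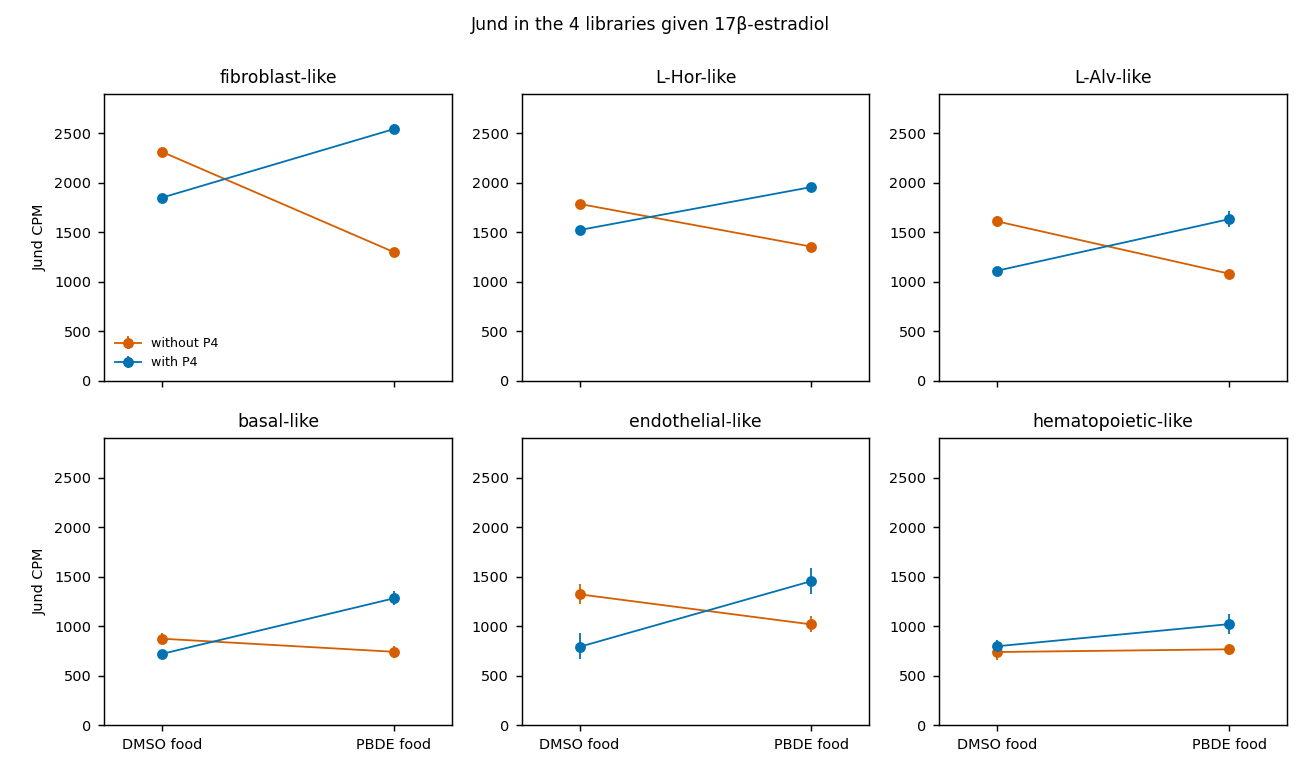
*Jund* level (CPM, axes starting at 0) in 6 cell types with matched food and with PBDE food, without P4 (OVX_E2 and OVX_E2_PBDE) and with P4 (OVX_E2_P4 and OVX_E2_P4_PBDE); bars are exact 95% Poisson intervals of counting error. In fibroblast-like barcodes the line without P4 goes from 2311 down to 1299 CPM and the line with P4 from 1849 up to 2542 CPM.

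A list of 31 other immediate early genes was set beside the 10. In OVX_E2 against OVX, 9 of 29 with enough UMIs were past 2-fold lower in basal-like barcodes and 0 higher, with a median log2 ratio of -0.84. In hematopoietic-like barcodes 9 of 25 were lower (median -0.67), and in L-Hor-like barcodes 7 of 25 (median -0.53). Among all genes with enough UMIs, 8.12%, 9.51% and 6.72% were past 2-fold lower in these compartments, with medians of -0.06, -0.07 and -0.23. *Srf* (0.324, 0.221 to 0.482), which encodes the serum response factor that drives many of these genes, *Cyr61* (0.361, 0.290 to 0.451), a secreted matrix protein, and *Myc* (0.367, 0.295 to 0.460) had the lowest L-Hor-like ratios, and *Fosl1* (1.55, 0.670 to 4.38) the highest. Fibroblast-like barcodes had 0 of 30 past 2-fold against 4.16% of all genes, with the nuclear receptor *Nr4a2* at 0.501 and *Egr2* at 1.90 at the ends. So where some of the 10 members were past 2-fold lower, in basal-like and hematopoietic-like barcodes, genes of the longer list were too. In L-Hor-like barcodes 7 of 25 listed genes were past 2-fold lower but 0 of the 10 members. With P4 against E2 alone, 1 of 29 was past 2-fold in L-Hor-like barcodes, against 1.58% of all genes. This was *Dusp2* at 4.26 (2.79 to 6.79), followed by *Dusp5* (1.80) and *Nr4a1* (1.79). With PBDE food added to both hormones, *Dusp2* (0.0635), *Srf* (0.417) and *Nr4a1* (0.498, 0.442 to 0.558) were lower. *Dusp2*, a nuclear MAP kinase phosphatase, rested on few barcodes: its 158 UMIs in OVX_E2_P4 came from 48 of 761 L-Hor-like barcodes, against 25 UMIs in OVX_E2 and 5 in OVX_E2_P4_PBDE. With PBDE food and no P4, 0 of 27 were past 2-fold in L-Hor-like and 0 of 30 in fibroblast-like barcodes (1.78% and 1.41% of all genes). In fibroblast-like barcodes *Nr4a3* (1.79) was then highest and *Dusp5* (0.535) lowest.

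Heat shock genes, which also answer cell handling, had 12 of 14 ratios of OVX_E2 to OVX below 1 in fibroblast-like and 11 of 14 in basal-like barcodes. In fibroblast-like barcodes the 14 genes summed to 6413 CPM in OVX, 4995 in OVX_E2, 4492 in OVX_E2_P4, 4761 in OVX_E2_PBDE and 4439 in OVX_E2_P4_PBDE. In basal-like barcodes they summed to 11134 CPM in OVX, 7194 in OVX_E2, 7572 in OVX_E2_P4, 8229.9 in OVX_E2_PBDE and 5207 in OVX_E2_P4_PBDE. OVX was highest in both, and also in hematopoietic-like (5779 CPM) and endothelial-like barcodes (8634 CPM). It was not highest in L-Hor-like barcodes, with 4359 CPM in OVX, 4442 in OVX_E2 and 4362 in OVX_E2_PBDE. Nor was it in clusters with markers of both luminal types, with 4419 CPM in OVX and 4493 in OVX_E2. The 10 genes were highest in OVX in both of these compartments. Gene by gene, 10 of 13 heat shock ratios of OVX_E2 to OVX were below 1 in L-Hor-like barcodes. Their median log2 ratio was -0.56, beside -0.40 for the members and -0.23 for all genes. *Hsp90ab1* (1.48), *Hspa8* (1.44) and *Hspe1* (1.24) were above 1. In OVX_E2 against OVX, 8 of 14 were past 2-fold lower in basal-like barcodes, against 8.12% of all genes. There *Hspe1* alone (named after its value was seen) was past 2-fold higher, against 5.9% of all genes. In fibroblast-like barcodes the inducible genes *Hspa1a* (0.456, 0.425 to 0.489) and *Hspa1b* (0.467, 0.405 to 0.538) were past 2-fold lower, against 1.58% of all genes. The part of handling in the levels of the 10 was not tested. *Hspa1b* was at 2.41 (2.06 to 2.82) in fibroblast-like barcodes with P4, where all 10 members had ratios below 1, and at 0.390 (0.320 to 0.472) with PBDE food added. The heat shock list as a whole had 9 of 14 ratios below 1 with P4 and 8 of 14 with PBDE food added. Its median log2 ratios were -0.07 and -0.06, beside -0.07 and -0.09 for all genes. The mitochondrial share of UMIs in fibroblast-like barcodes had medians of 1.75% in OVX, 1.31% in OVX_E2, 2.02% in OVX_E2_P4, 1.45% in OVX_E2_PBDE and 1.26% in OVX_E2_P4_PBDE. Its part in the levels of the 10 genes was not tested.

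Genes of feedback and of the kinases upstream, 17 in all, were past 2-fold in OVX_E2 against OVX for 3 of 12 with enough UMIs in L-Hor-like, 3 of 9 in basal-like, 2 of 4 in hematopoietic-like, 2 of 16 in fibroblast-like and 0 of 9 in endothelial-like barcodes. The shares of all genes were 9.25%, 14%, 11.5%, 4.16% and 3.62%. In fibroblast-like barcodes these were *Spry2*, an inhibitor of growth factor signalling, at 0.451 (0.413 to 0.490), and *Ier5l* at 2.29 (1.5 to 3.51). In L-Hor-like barcodes they were *Srf* and also *Egfr* (0.454, 0.253 to 0.858), the receptor for EGF-family ligands, and the kinase gene *Mapk8* (0.464, 0.308 to 0.715). With P4, *Spry4* (1.83) and the ERK phosphatase gene *Dusp6* (1.76) had the highest fibroblast-like ratios. In L-Hor-like barcodes *Elk1* at 0.443 (0.243 to 0.792) was the 1 gene of 14 past 2-fold, against 1.58% of all genes. With PBDE food on top of P4, *Spry4* (0.567), *Spry1* (0.596) and *Dusp6* (0.714) had the lowest fibroblast-like ratios of the list. In that comparison *Srf* was the 1 L-Hor-like gene of 13 past 2-fold, against 2.89% of all genes. With PBDE food added to E2 without P4, 0 of 14 were past 2-fold in L-Hor-like and 0 of 16 in fibroblast-like barcodes. The shares of all genes were 1.78% and 1.41%.

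Patterns over the 33 pairs of library and cell type with at least 20 barcodes tied some members to each other. Pearson's r of log2(CPM + 10) was 0.930 between *Fos* and *Egr1* and 0.912 between *Junb* and *Dusp1*, the highest of the 45 pairs, and -0.258 between *Jund* and *Ier3*, the lowest. Among 10806 genes, the 3 most like *Fos* were *Egr1* (0.930), *Cd151* (0.911) and *Rras* (0.885). *Egr1* was followed by *Fos*, *Sertad1* (0.895) and *Pink1* (0.892). *Dusp1* had the closest partner of all members, *Zfp36* (0.963), which encodes an mRNA-destabilising protein, and then *Dpysl2* (0.950) and *Jak1* (0.945). *Junb* was most like *Tprgl* (0.922), *Dusp1* and *Socs3* (0.904), a feedback inhibitor of cytokine signalling. *Ier2* was most like *Btg2* (0.915), *Tnfrsf1a* (0.911) and *Smad6* (0.906), and *Ier3* most like *Dusp6* (0.907), *Slc41a1* (0.882) and *Ntng1* (0.878). *Fosb* was most like *Lzts2* (0.897), *Copa* (0.879) and *Rhob* (0.875). For *Jun* these were *Cuedc1* (0.916), *Prmt2* (0.874) and *Lzts2* (0.864), and for *Atf3* they were *Jun* (0.847), *Prmt2* (0.823) and *Tsen34* (0.816). *Jund* had no close partner: *Gstt1* (0.744), *Smim1* (0.742) and *Smim7* (0.718) came first. The pairs share libraries and depth, and these values are descriptions.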

How the data were processed

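The authors prepared 10x Chromium v2 3′ libraries from dissociated mammary glands and, per the labels and methods, aligned and counted reads with Cell Ranger 2.0.0 against mm10. The deposited values are raw UMI counts per gene and barcode, with no normalization. No cell annotation was used here.

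Kept barcodes held at least 500 genes and 1000 UMIs and at most 10% mitochondrial UMIs. Libraries were clustered one by one with Seurat 5.3.0 (R 4.3.3, 2000 variable genes, 10 principal components, resolution 0.3 for OVX and 0.5 for the others). The 10 members, the 31 other immediate early genes and the 14 heat shock genes were left out of the variable genes. Clusters were named from fixed markers. Doublets were not removed; leaving out the 20% of barcodes with the highest Scrublet scores (scanpy 1.11.5) was an alternative. Clusters holding markers of both luminal types were kept out of the named types as mixed luminal.

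UMIs were summed per cell type and library. CPM intervals are exact Poisson, ratio intervals exact conditional, and share intervals Clopper-Pearson (scipy 1.17.1). A ratio was past 2-fold at 2 or more or 0.5 or less, for genes reaching 50 UMIs when both libraries were added up. The ratio step was run on simulated Poisson counts, the model its intervals assume, so this checks the calculation only. The simulation held no further variation between barcodes. In the data the summed member UMIs per thinned barcode had a variance over mean of 2.21 to 24.5 across types and libraries. Libraries of 19982067 to 42012988 UMIs limit precision mainly in types with few barcodes.

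The members and the other gene lists were chosen with earlier results of these data known. The 10 members were named throughout. Of the other lists, up to 3 genes with the highest and 3 with the lowest ratio in fibroblast-like and L-Hor-like barcodes could be named, and for each member the 3 genes most like it in pattern. Positions are from GENCODE vM21 and promoters from RefSeq (GRCm38.p6).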

Additional observations from a re-analysis of the deposited data

Results flagged for a closer look

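Some members lay on opposite sides of 1, by more than 1.25 and with both counting intervals off 1, when PBDE food was compared with matched food without and with P4. Each ratio compares 1 library with 1 library, so the difference between the settings was not tested. Whether the PBDE libraries were prepared apart is not given, so a difference in preparation could not be told from PBDE food. For *Jund* the ratio was 0.758 without and 1.29 with P4 in L-Hor-like barcodes. In L-Alv-like barcodes it was 0.672 and 1.47, in fibroblast-like barcodes 0.562 and 1.37, and in endothelial-like barcodes 0.770 and 1.84. Endothelial-like barcodes held 4 more such genes. *Fos* was at 0.672 and 1.81, *Jun* at 0.734 and 1.54, *Egr1* at 0.747 and 1.65, and *Ier2* at 0.797 and 1.32. The endothelial-like groups held 44 and 72 barcodes without P4, and 27 and 58 with it. Leaving out the 20% highest Scrublet scores left 20 and 43 of them without P4, and 1 and 47 with it. Summed luminal markers in the endothelial-like barcodes of OVX_E2_P4 were 1013 CPM, against 152 to 889 in the other libraries, and their part was not tested. With a mitochondrial limit of 5% the endothelial-like ratios without P4 of *Fos* (1.15), *Jun* (1.04), *Egr1* (1.38) and *Ier2* (1.18) were above 1, and with the 20% highest Scrublet scores left out so was that of *Jund* (1.03), so the opposite directions were not kept there. The limit of 1.25 was set after the ratios were seen.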

How the results depend on the processing

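The 10 members' ratios moved by less than their counting interval in 220 of 230 cases at a clustering resolution of 1.0, in 196 of 230 at a mitochondrial limit of 5%, in 187 of 230 without mitochondrial and ribosomal protein genes in the total, in 186 of 230 with every barcode counted equally, in 161 of 230 with the median of all genes set to 1, in 146 of 230 with barcodes assigned on their own markers and in 140 of 226 with the 20% highest Scrublet scores left out. Clustering with the listed genes allowed among the variable genes kept 219 of 220 and gave no L-Alv-like cluster in OVX_E2_P4_PBDE, so those ratios could not be computed. Fibroblast-like ratios moved by less than their counting interval in 13 of 40 cases with *Pi16*-led clusters only. The count was 10 of 40 with the other clusters only, and 0 of 10 with OVX cluster 1 left out.

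Counts of members past 2-fold were 0 in all 4 comparisons of fibroblast-like and of L-Hor-like barcodes. Over all barcodes of a library, with no cell types, 2 members were past 2-fold in OVX_E2 against OVX, where 18.8% of all genes were. With a limit of 1.5-fold, 2 members passed in L-Hor-like barcodes of OVX_E2 against OVX (30.8% of all genes) and 2 of OVX_E2_P4_PBDE against OVX_E2_P4 (12.8%), where 1 passed 2-fold without mitochondrial and ribosomal protein genes in the total (3.07%). In fibroblast-like barcodes 3 members passed 1.5-fold in OVX_E2_P4 against OVX_E2 (9.11% of all genes) and 3 in OVX_E2_PBDE against OVX_E2 (9.52%). In endothelial-like barcodes the counts of OVX_E2_P4 against OVX_E2 and of OVX_E2_P4_PBDE against OVX_E2_P4 went from 0 to 4 and 4 with barcodes assigned on their own markers (17.2% and 18.2% of all genes), and to 7 and 8 with the 20% highest Scrublet scores left out (29.9% and 37.4%), which left 1 barcode in OVX_E2_P4. The ratios of *Fosb*, *Atf3*, *Ier2* and *Dusp1* of OVX_E2_P4_PBDE against it then had a 0 in the denominator and gave no value. In hematopoietic-like barcodes of OVX_E2 against OVX, leaving out those scores reversed *Fos* to 1.09, *Fosb* to 1.32 and *Jund* to 1.08, put *Junb* at 1.06 and *Atf3* at 1.59, and taking all barcodes together reversed *Ier3* to 1.20. In hematopoietic-like barcodes the same choice of scores put 8 members below 1 in OVX_E2_P4 against OVX_E2, where 2 were, and 7 in OVX_E2_PBDE against OVX_E2, where 1 was. There *Ier3* and *Egr1* passed 2-fold in OVX_E2_P4 against OVX_E2 with the median of all genes set to 1. They also did without mitochondrial and ribosomal protein genes in the total. Of the 30 genes most like a member by Pearson's r, 13 were also among the 3 most like it by Spearman's rho. The causes were not tested. The splits of fibroblast clusters and of immune barcodes were added after seeing the data. With 1 library per group no replicate could be left out. No paired analysis was possible because each group has 1 library and the result comes from no test. Depth limits the endothelial-like, hematopoietic-like and basal-like ratios most, which rest on 27 to 164 barcodes a library.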

Other observations

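Clusters that held markers of both luminal types, 195 to 504 barcodes a library with median depths of 15392 to 25546 UMIs, entered no comparison above. In them the 10 genes summed to 8347 CPM in OVX, 7220.5 in OVX_E2, 7141 in OVX_E2_P4, 7173 in OVX_E2_PBDE and 6904 in OVX_E2_P4_PBDE, and *Fos* stood at 1487 CPM in OVX, 1605 in OVX_E2, 2051 in OVX_E2_P4, 1968 in OVX_E2_PBDE and 1746 in OVX_E2_P4_PBDE. *Jund* there was at 0.766 (0.751 to 0.781) for PBDE food without P4 and at 1.36 (1.32 to 1.39) with P4, and *Fos* with P4 against E2 alone at 1.28 (1.25 to 1.30).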
